A study of Homo sapiens with 12 samples.

Results

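Metallothioneins and the genes that move zinc across membranes were described across SKBR3 and MDA-MB-453 cells, with and without TWEAK. The group held 10 of the 62696 gene identifiers in each count table, namely the metallothioneins MT2A, MT1X, MT1G, MT1F, MT1E and MT1M, the metal-responsive transcription factor MTF1, the zinc exporter SLC30A1 and the zinc importers SLC39A10 and SLC39A14. The list was chosen by function with earlier results of these data known, among them the TWEAK fold changes in SKBR3, where MT2A was one of the larger decreases, so the values of these 10 genes in every comparison are given as a description. Where one of them is said to be called or to pass the threshold, that is its outcome in the fit over all genes and supports nothing, and no p is given for it. SKBR3 and MDA-MB-453 (MB453 in the labels) are established human lines of the HER2 subtype, and each was grown as 3 untreated (UT) and 3 TWEAK-treated (TWEAK) replicates. TWEAK is a cytokine of the tumour necrosis factor family that signals through the receptor Fn14, encoded by TNFRSF12A. According to the labels the cells were seeded in serum-containing medium, starved in Opti-MEM for 8 h and given TWEAK at 10 ng/ml for 48 h, with a fresh dose after 24 h. The labels carry that same growth text for the untreated samples and name no vehicle. Neither line carried an engineered allele according to the labels, and the study's methods call the replicates biological.

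Metallothioneins are small cysteine-rich proteins that bind zinc, copper and cadmium and buffer the free zinc of the cell. Free zinc binds the factor MTF1, which enters the nucleus and acts on metal response elements in the promoters of metallothionein genes and of SLC30A1, whose product exports zinc from the cytoplasm. Proteins of the SLC39 (ZIP) family, among them the products of SLC39A10 and SLC39A14, carry zinc the other way, into the cytoplasm, and glucocorticoids and oxidants are further known inducers of metallothionein transcription.

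The 6 metallothionein genes lie together on the long arm of chromosome 16 (GRCh38), from MT2A at chr16:56608584-56609497 (plus strand) to MT1X at chr16:56682470-56684196 (plus strand). Between them lie MT1E at chr16:56625475-56627112, MT1M at chr16:56632659-56633981 and MT1F at chr16:56657731-56660698, all on the plus strand, and MT1G at chr16:56666730-56668065 on the minus strand. MTF1 lies at chr1:37809574-37859592 and SLC30A1 at chr1:211571568-211579161, both on the minus strand, while SLC39A10 lies at chr2:195575977-195737702 on the plus strand. The values are reads counted over the exons of these protein-coding genes. In GENCODE 44 the transcripts of MT2A, MT1F, MT1G, MT1E and MT1M shared no run of 100 bases with another gene. MT1X shared 11.6% of such runs with the long non-coding RNA ENSG00000259827, which overlaps 18.6% of the exonic bases of MT1X on the same strand. With runs of 75 bases, 14.7% of MT1X and 5.72% of MT1G were found in other genes, so part of the reads of these genes could be split or lost in counting.

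Promoter sequences were taken from RefSeq (GRCh38.p14) and were used for 5 of the genes. The source held no entry for MT1G, MT1F, MT1E and MT1M. MT1G, also lower in TWEAK-treated SKBR3 cells, could therefore not be searched. The 250 bases before the start site are shown for MT2A and MT1X, both lower in TWEAK-treated SKBR3 cells, and for SLC30A1, known as a target of the same factor, which was not. Capitals mark matches to the metal response element core, searched as TGCACNC or TGCGCNC on both strands. The windows are chr16:56608334-56608583 (plus strand) for MT2A, chr16:56682220-56682469 (plus strand) for MT1X and chr1:211579162-211579411 (minus strand) for SLC30A1, each written 5′ to 3′ on the strand of the gene.
MT2A: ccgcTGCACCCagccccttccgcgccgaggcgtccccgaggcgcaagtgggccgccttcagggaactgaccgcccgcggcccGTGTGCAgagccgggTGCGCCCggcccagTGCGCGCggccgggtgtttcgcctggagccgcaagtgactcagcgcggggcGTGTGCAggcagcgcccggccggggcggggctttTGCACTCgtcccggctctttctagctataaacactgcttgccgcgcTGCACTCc
MT1X: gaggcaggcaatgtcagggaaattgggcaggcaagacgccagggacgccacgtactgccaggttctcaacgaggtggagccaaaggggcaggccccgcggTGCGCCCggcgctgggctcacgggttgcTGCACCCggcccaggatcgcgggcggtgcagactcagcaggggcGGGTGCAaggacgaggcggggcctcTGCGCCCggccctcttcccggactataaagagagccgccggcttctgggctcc
SLC30A1: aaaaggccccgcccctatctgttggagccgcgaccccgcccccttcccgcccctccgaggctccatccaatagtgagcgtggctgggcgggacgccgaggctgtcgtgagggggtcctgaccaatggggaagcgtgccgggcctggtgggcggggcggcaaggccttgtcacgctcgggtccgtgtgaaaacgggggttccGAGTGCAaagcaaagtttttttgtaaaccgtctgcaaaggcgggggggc

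The MT2A window held 7 matches, from 246 to 8 bases before the start, and the MT1X window held 4, from 150 to 53 bases before it. SLC30A1 held 1 match, 49 bases before the start, and MTF1 and SLC39A10 held 0 in their windows of this length. Among metallothionein genes outside the group, MT1H held 8 matches and MT1B and MT4 held 3 each. MT1H had at most 3 reads in a library and MT1B and MT4 had 0. Of all 35116 promoters in the table, 24.8% held at least 1 match in the 250 bases before the start, 0.37% held at least 4 and 0.0313% at least 7. The hexamer AGAACA, an arm of the glucocorticoid receptor element, had 0 matches before the start of any of these genes and was present in 12.4% of all promoters. A match describes letters in the window and does not show binding. A lack of matches does not exclude an element with other letters or outside the window. Whether the matches relate to the TWEAK changes was not tested.

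The libraries held between 24773003 and 35208304 counted reads, and 15661 genes were tested in SKBR3 and 14929 in MDA-MB-453. Both lines carried the epithelial HER2 markers ERBB2, GRB7, KRT8, KRT18, KRT19 and EPCAM, whereas CDH1 had between 1 and 7 reads in the SKBR3 libraries. Among markers of other cells, PTPRC, CD3E and CD14 of leukocytes had at most 15 reads in a library, DCN of fibroblasts at most 1 and PECAM1 of endothelium at most 2, whereas VWF had between 55 and 89 reads in SKBR3, and COL1A1 was read in both lines, at 19.2 ± 1.44 CPM in SKBR3 UT and 120.3 ± 3.57 CPM in MDA-MB-453 UT (SD, n = 3). As checks of the treatment, NFKB2 was higher with TWEAK in both lines, with log2 fold changes of 1.79 (SKBR3) and 1.67 (MDA-MB-453), and so was BIRC3, with 3.42 and 3.57. The receptor gene TNFRSF12A rose by 0.37 in SKBR3 (edgeR adjusted p = 0.0322), a call lost without untreated replicate 1 or 2 (adjusted p up to 0.17), and had 0.17 in MDA-MB-453, where it was not called in the fit with all libraries and was called without a filter, with the replicate block and without TWEAK replicate 2. The epithelial marker KRT19 was higher with TWEAK in SKBR3, at 4685 ± 622 CPM against 3738.9 ± 208 CPM (SD, n = 3; log2 fold change 0.32, SE 0.0908, edgeR adjusted p = 0.0608), and had -0.03 in MDA-MB-453, where it was not called. Its call in SKBR3 was lost in 4 of 14 alternatives, and its part in the other results was not tested. In both lines replicate 2 of the TWEAK group stood apart. The median absolute log2 difference between SKBR3 TWEAK replicate 2 and the other TWEAK replicates was 0.166 and 0.167, against 0.0662 to 0.105 among the remaining pairs of that line, and without it 1589 genes were higher and 1191 lower, against 1034 and 599 with it. For MDA-MB-453 TWEAK replicate 2 it was 0.111 and 0.0825, against 0.0634 to 0.075, and without this library 1003 genes were higher and 1098 lower, against 192 and 31 with it. For the 10 genes, results that change without either library are named below.

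The outstanding feature of the group was the fall of metallothionein transcripts in SKBR3 cells given TWEAK. MT2A, the main metallothionein of most epithelial cells, stood at 262.0, 271.6 and 311.9 CPM (counts scaled to the library total and by TMM) in the untreated libraries and at 82.1, 106.9 and 86.6 CPM in the TWEAK libraries. The highest TWEAK library lay far below the lowest untreated one. The means were 281.8 ± 26.5 and 91.8 ± 13.2 CPM (SD, n = 3), a log2 fold change of -1.62 (SE 0.104) or a level 3.08-fold lower, from raw counts of 6561 to 7560 reads untreated and 2030 to 2665 reads with TWEAK. In bulk RNA, fewer cells that carry a transcript and less of it per cell cannot be told apart.

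MT1G, a metallothionein isoform of the same cluster, was read at 7.98, 7.45 and 7.18 CPM in untreated SKBR3 libraries and at 2.63, 4.01 and 2.96 CPM with TWEAK. The groups did not overlap, and the log2 fold change was -1.24 (SE 0.15), or 2.36-fold lower. MT1X, the isoform whose promoter is shown above, was read at 10.96, 14.37 and 12.71 CPM untreated and at 7.48, 9.30 and 7.85 CPM with TWEAK. Its groups did not overlap either, and its log2 fold change was -0.63 (SE 0.124), or 1.54-fold lower. MT1F was read at 3.16, 2.77 and 2.72 CPM untreated and at 2.02, 2.65 and 1.88 CPM with TWEAK, with a log2 fold change of -0.41 (SE 0.172). Here the untreated libraries lay above the TWEAK libraries by a narrow margin, from 66 to 88 reads against 45 to 66 reads, and the difference did not pass the threshold. MT1E had 0 reads in the 6 SKBR3 libraries and MT1M had 0 or 1, so neither was tested, and a count of 0 allows up to 0.124 CPM in the untreated libraries (3 reads in a library).

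**Figure D1:**
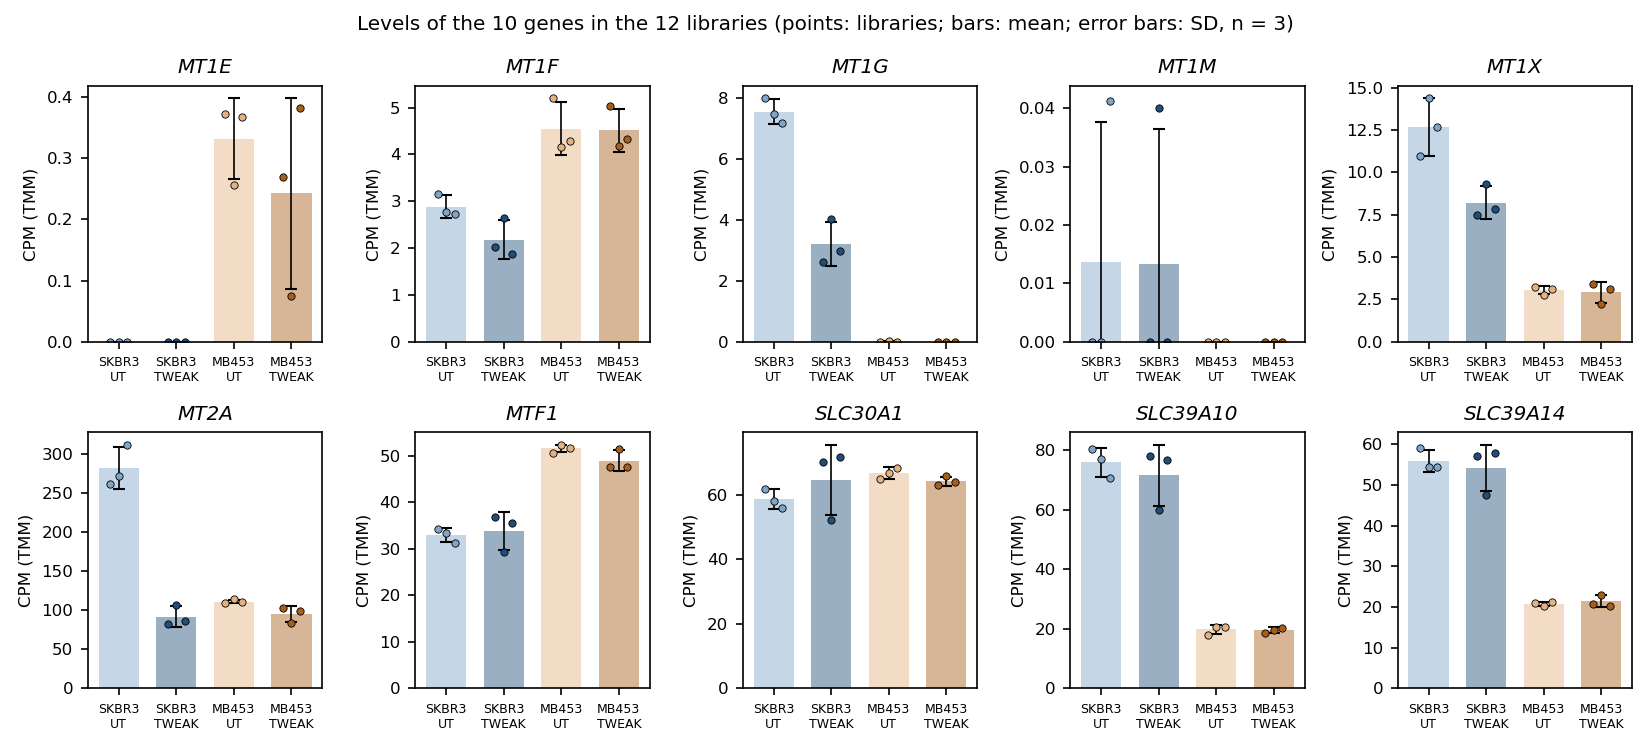
Level of each gene in CPM (linear axis from 0, with its own scale in each panel) in the untreated (UT) and TWEAK groups of SKBR3 (blue) and MDA-MB-453 (MB453, brown). Points are libraries, bars are means and error bars are SD (n = 3). MT2A falls from 281.8 to 91.8 CPM in SKBR3, while MTF1 and the transporters overlap between UT and TWEAK in SKBR3.

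Summed over all 19 annotated metallothionein genes and pseudogenes considered, SKBR3 cells held 305.6 ± 26.5 CPM untreated and 105.9 ± 15.5 CPM with TWEAK (SD, n = 3). The untreated libraries ranged from 284.6 to 335.3 CPM and the TWEAK libraries from 94.4 to 123.5 CPM. MT2A supplied 91.5 to 93.0% of these reads in the untreated libraries and 86.6 to 87.0% with TWEAK, so the make-up of the pool moved away from MT2A as its size fell. Of the 13 further metallothionein genes and pseudogenes, none passed the count filter used with edgeR in either line, and DESeq2, run without that filter, gave 1 of them an adjusted p in each line and called 0. MT1XP1 had at most 11 reads in a library, MT1A at most 5, MT1H at most 3 and MT1P1 at most 2.

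**Figure D2:**
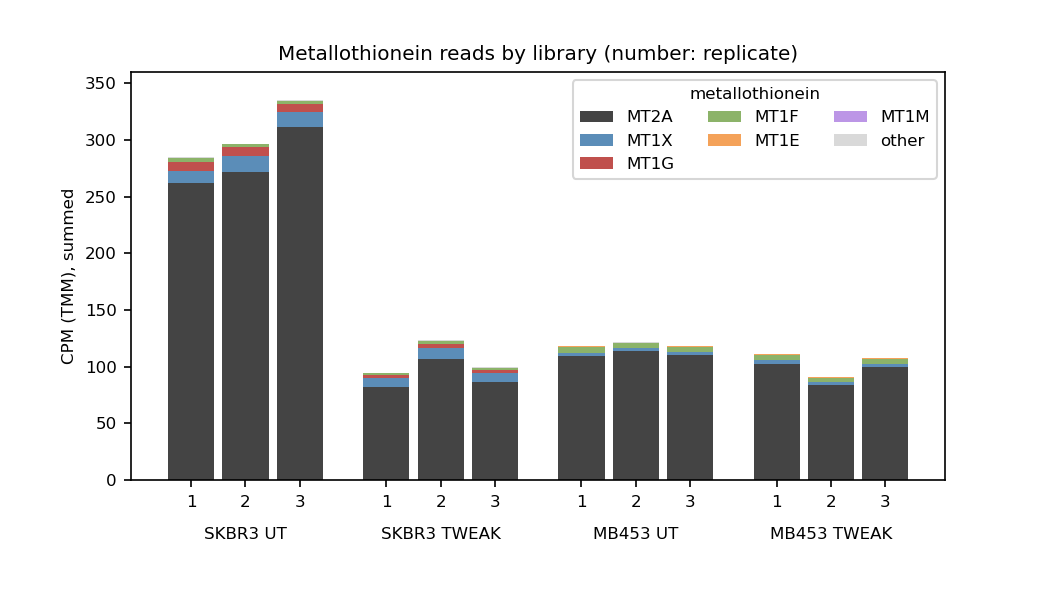
Metallothionein reads of each library in CPM, stacked by gene, with the 13 further genes together as other. The height of a bar is the sum for 1 library, which ranges from 284.6 to 335.3 CPM in SKBR3 UT and from 94.4 to 123.5 CPM in SKBR3 TWEAK, and MT2A forms most of every bar.

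In SKBR3 the regulator and the transporters did not share this pattern. MTF1, the zinc sensor, was read at 34.3, 33.4 and 31.4 CPM untreated and at 36.8, 29.3 and 35.5 CPM with TWEAK, with a log2 fold change of 0.03 (SE 0.089). SLC30A1, the exporter of the plasma membrane, was read at 61.8, 58.0 and 55.9 CPM untreated and at 70.0, 52.2 and 71.7 CPM with TWEAK, with a log2 fold change of 0.14 (SE 0.107). The TWEAK libraries of SLC30A1 lay on both sides of the untreated range, with replicate 2 as the low one. Without that library the log2 fold change was 0.27 (SE 0.0565) and passed the threshold. Without TWEAK replicate 1 it was 0.08 (SE 0.119) and without TWEAK replicate 3 it was 0.06 (SE 0.113), and neither passed.

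SLC39A10, an importer of the plasma membrane, was read at 80.4, 76.8 and 70.7 CPM untreated and at 78.1, 59.8 and 76.8 CPM with TWEAK, with a log2 fold change of -0.09 (SE 0.098). SLC39A14, an importer that also carries iron and manganese (chr8:22367278-22434129, plus strand), was read at 59.1, 54.4 and 54.3 CPM untreated and at 57.0, 47.6 and 57.9 CPM with TWEAK, with a log2 fold change of -0.05 (SE 0.083). Replicate 2 was the lowest TWEAK library for MTF1 and for each of the 3 transporters and the highest for MT2A, MT1X, MT1G and MT1F. Without it MT1F also passed the threshold, at -0.57 (SE 0.186). The part of this library in the other differences is given by the fits without single libraries, under which MT2A ranged from -1.74 to -1.54 over all alternatives, MT1G from -1.44 to -1.11 and MT1X from -0.73 to -0.53.

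At an adjusted p of at most 0.1 (edgeR quasi-likelihood test over all genes, Benjamini-Hochberg), 3 of the 8 tested genes of the group were called lower (MT2A, MT1G and MT1X) and 0 higher. At an unadjusted p under 0.05 there were 4, and DESeq2 called 3. Over all genes 3.82% were called lower and 6.6% higher, and nothing is read from the count, since the genes were picked with this contrast known. The groups did not overlap for 4 of the 8, beside 26.5% of all tested genes. The median log2 fold change of the 8 was -0.25 and that of all tested genes -0.01. Genes with at most 2000 exonic bases, the class to which the metallothioneins belong, had a median of 0.05 over 2642 genes, and 36 of them (1.36%) were called lower. By library the median log2 deviation of this class, taken from each gene's mean over the 6 SKBR3 libraries, was 0.104 in TWEAK replicate 2. It was -0.0175 and -0.0261 in TWEAK replicates 1 and 3 and between -0.0359 and 0.00297 in the untreated libraries.

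In MDA-MB-453 cells MT2A was read at 109.2, 113.9 and 110.2 CPM untreated and at 102.3, 84.0 and 99.4 CPM with TWEAK. The TWEAK libraries all lay below the untreated ones, and replicate 2 was the lowest of them. The means were 111.1 ± 2.47 and 95.2 ± 9.86 CPM (SD, n = 3), a log2 fold change of -0.22 (SE 0.0586). This change did not pass the threshold in the main analysis. It passed in 6 of 14 alternatives, among them the replicate block (-0.225, SE 0.0467). Without TWEAK replicate 2 it was -0.14 (SE 0.0386) and passed.

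MT1X was read at 3.23, 2.77 and 3.12 CPM untreated and at 3.39, 2.24 and 3.14 CPM with TWEAK, and its log2 fold change was -0.05 (SE 0.154). MT1F was read at 5.20, 4.16 and 4.30 CPM untreated and at 5.04, 4.18 and 4.34 CPM with TWEAK, and its log2 fold change was -0.02 (SE 0.121). For both genes the groups overlapped. MT1E, without reads in SKBR3, had 7 to 10 reads in the untreated and 2 to 14 in the TWEAK libraries, and did not pass the count filter used with edgeR. MT1G had 1 read in 1 untreated library and 0 in the other 5, and MT1M had 0 in all 6, which allows up to 0.115 CPM. The metallothionein sum was 119.2 ± 1.88 CPM untreated and 103.1 ± 10.8 CPM with TWEAK (SD, n = 3), and MT2A supplied 92.4 to 93.8% of it untreated and 92.1 to 92.5% with TWEAK.

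MTF1 was read at 50.7, 52.3 and 51.8 CPM in untreated MDA-MB-453 libraries and at 47.6, 51.6 and 47.7 CPM with TWEAK, with a log2 fold change of -0.08 (SE 0.046). SLC30A1 stood between 64.7 and 68.3 CPM untreated and between 63.0 and 65.7 CPM with TWEAK, with a log2 fold change of -0.05 (SE 0.041). SLC39A10 stood between 18.0 and 20.8 CPM untreated and between 18.4 and 20.3 CPM with TWEAK, and SLC39A14 between 20.1 and 21.2 CPM and between 20.3 and 23.1 CPM. Their log2 fold changes were -0.02 (SE 0.066) and 0.04 (SE 0.062). The groups overlapped for each of these 4 genes.

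In MDA-MB-453 the edgeR test called 0 of the 7 tested genes of the group higher or lower, beside 1.29% and 0.208% of all genes. For 1 of the 7, MT2A, the unadjusted p was under 0.05, and DESeq2 called 1. With the replicate block edgeR called 1 of them lower, MT2A, beside 490 higher and 404 lower among all genes. The groups did not overlap for 1 of the 7, beside 15.1% of all tested genes, and the median log2 fold change was -0.05.

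**Figure D3:**
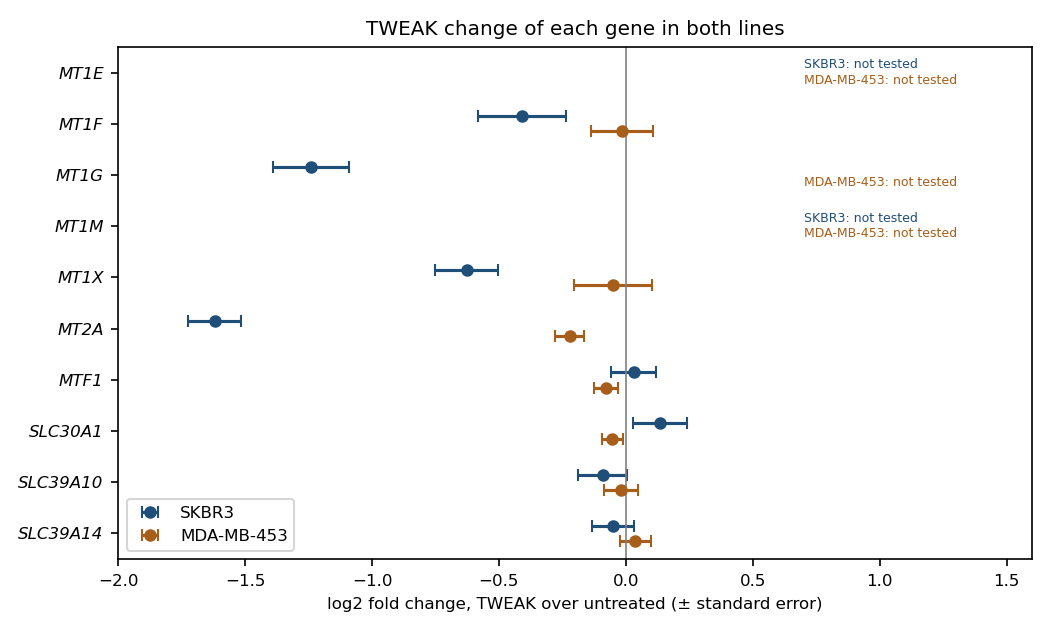
Log2 fold change of TWEAK over untreated for each tested gene (points) with its standard error (bars), in SKBR3 (blue) and MDA-MB-453 (brown). MT2A, MT1G and MT1X lie at -1.62, -1.24 and -0.63 in SKBR3, and every tested gene lies between -0.22 and 0.04 in MDA-MB-453.

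The difference between the lines in their TWEAK change was fitted as an interaction over the 12 libraries, as the signed log2 fold change of MDA-MB-453 minus that of SKBR3, so that for a gene below its untreated level in both lines a positive value means a fold change nearer 0 in MDA-MB-453. MT2A, with log2 fold changes of -0.22 in MDA-MB-453 and -1.62 in SKBR3, had a difference of 1.40 (SE 0.129), and it lay between 1.32 and 1.53 over 19 alternatives. For MT1X the difference was 0.57 (SE 0.21) and did not pass the threshold, and it passed in 4 of 19 alternatives, among them those that left out TWEAK replicate 2 of SKBR3 (0.69) or of MDA-MB-453 (0.71). MT1F differed by 0.39 (SE 0.21), and MTF1, SLC30A1, SLC39A10 and SLC39A14 by -0.11, -0.19, 0.07 and 0.09, none past the threshold. The term of SLC30A1 passed without SKBR3 TWEAK replicate 2, at -0.31 (SE 0.0708). The fitted term of MT1G has no meaning, since MDA-MB-453 held 1 read of it in all. Of the 8 tested genes 1 was called with a positive difference and 0 with a negative one, beside 1.01% and 2.36% of all genes.

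The untreated lines differed widely in the make-up of the group. Per length, in TPM (a level corrected for gene length), MT2A led in both lines, with 1169 ± 90.4 TPM in SKBR3 and 447.0 ± 15.7 TPM in MDA-MB-453 (SD, n = 3). In SKBR3 it was followed by SLC39A10 (41.7 ± 3.32 TPM), MT1G (38.1 ± 2.57 TPM) and SLC30A1 (37.7 ± 2.45 TPM), whose libraries overlapped from each gene to the next. SLC39A14 (30.7 ± 1.83 TPM) and MT1X (27.9 ± 3.76 TPM) came next and overlapped each other, and MTF1 (15.7 ± 0.949 TPM) and MT1F (5.92 ± 0.561 TPM) stood apart below them. In MDA-MB-453 the order after MT2A was SLC30A1 (41.6 ± 0.873 TPM), MTF1 (23.8 ± 0.578 TPM), SLC39A14 (11.04 ± 0.151 TPM), SLC39A10 (10.5 ± 0.807 TPM), MT1F (9.04 ± 1.16 TPM), MT1X (6.48 ± 0.464 TPM) and MT1E (1.16 ± 0.219 TPM). There the neighbours SLC39A14 and SLC39A10, and SLC39A10 and MT1F, overlapped.

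The order differed with TWEAK in SKBR3. MT2A stood at 362.7 ± 37.6 TPM and was followed by SLC30A1 (39.9 ± 7.99 TPM) and SLC39A10 (37.6 ± 6.67 TPM), which overlapped, while MT1G moved from the third to the seventh place at 15.4 ± 2.83 TPM. There MT1X (17.2 ± 1.33 TPM), MTF1 (15.4 ± 2.36 TPM) and MT1G overlapped from each to the next. MT2A in TWEAK-treated SKBR3 cells (333.6 to 405.1 TPM) thus lay below untreated MDA-MB-453 (435.1 to 464.9 TPM) and overlapped TWEAK-treated MDA-MB-453 (338.7 to 409.2 TPM). The order in MDA-MB-453 was the same with TWEAK as without it. With the length of the longest transcript in place of all exons, SLC30A1 and SLC39A14 changed places in untreated SKBR3 while with TWEAK MT1G stood in place 5 and SLC30A1 in place 4.

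Between the untreated lines, MT2A was 2.55-fold higher in SKBR3 (log2 difference 1.35, SE 0.0508) and MT1X 4.16-fold higher (2.06, SE 0.116). MT1G was at least 67.9-fold higher, taken against 3 reads in a library, and passed the count filter through SKBR3 alone. The importers followed the same direction, SLC39A10 by 1.95 (SE 0.0604) or 3.86-fold and SLC39A14 by 1.44 (SE 0.0556) or 2.71-fold. MT1F was lower in SKBR3 by a log2 difference of -0.64 (SE 0.137), MTF1 by -0.64 (SE 0.0512) and SLC30A1 by -0.18 (SE 0.0484), and MT1E was at least 2.67-fold higher in MDA-MB-453. Of the 8 tested genes 5 were higher and 3 lower in SKBR3, beside 44.8% and 42.4% of all genes, so that a difference between the lines was the rule for any gene. The lines were deposited in separate tables, and line and table cannot be told apart.

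For the other zinc transporters, calls with TWEAK stand beside 6.6% higher and 3.82% lower over all genes in SKBR3. In MDA-MB-453 these shares were 1.29% and 0.208%, and nothing is read from the counts of transporters. Of the 9 tested SLC39 importers outside the group, edgeR called 0 in either line, 0 had an unadjusted p under 0.05 and DESeq2 called 0, with a median log2 fold change of -0.06 in SKBR3 and 0.03 in MDA-MB-453. Of the 7 tested SLC30 exporters in SKBR3, edgeR called 1 higher, 3 had an unadjusted p under 0.05 and DESeq2 called 0. The gene called was SLC30A2, an exporter known for zinc secretion in the mammary gland, which went from 4 to 6 reads untreated to 10 to 13 reads with TWEAK (log2 fold change 1.21, SE 0.346, edgeR adjusted p = 0.0649). That call was lost in 10 of 13 alternatives, with adjusted p between 0.0533 and 0.389, and SLC30A2 had 0 reads in MDA-MB-453. There edgeR called 0 of the 5 tested exporters, 0 had an unadjusted p under 0.05 and DESeq2 called 0. Between the untreated lines the transporters differed in both directions. SLC39A8, an importer that itself responds to NF-κB, was lower in SKBR3 (2.56 ± 0.194 CPM) than in MDA-MB-453 (44.2 ± 1.83 CPM), whereas SLC39A11 was higher (83.3 ± 1.33 and 18.8 ± 0.839 CPM), with log2 differences of -4.10 and 2.15 and edgeR adjusted p of 1.03e-24 and 6.47e-23.

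Metallothioneins also bind copper, and of 9 copper handling genes 2 rose and 0 fell in SKBR3. ATOX1, the cytosolic copper chaperone, rose from 81.5 ± 4.26 to 118.1 ± 17.6 CPM (log2 fold change 0.53, SE 0.0985, edgeR adjusted p = 0.00625). SCO2, a copper chaperone of cytochrome c oxidase, rose by 0.34 (edgeR adjusted p = 0.0416) and lost the call without untreated replicate 1 or 2. It shares 26.1% of its exonic bases with TYMP on the same strand and 62.1% with NCAPH2 on the other, so its reads cannot be assigned with certainty. In MDA-MB-453 both were called as well, ATOX1 at 0.21 (edgeR adjusted p = 0.0911) and SCO2 at 0.22 (adjusted p = 0.096), but these calls were lost in 8 and 11 of 14 alternatives, DESeq2 included.

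Among 13 tested iron handling genes 3 rose and 2 fell in SKBR3. FTH1, the heavy chain of the iron store ferritin, rose from 644.3 ± 35.0 to 1359.9 ± 173 CPM (log2 fold change 1.07, SE 0.089, edgeR adjusted p = 1.98e-05). The light chain FTL rose by 0.26 (adjusted p = 0.0745) and the metalloreductase STEAP4 by 0.49 (adjusted p = 0.0961). The importer SLC11A2 fell by 0.31 on the log2 scale (edgeR adjusted p = 0.0195) and the exporter ferroportin, SLC40A1, by 0.30 (adjusted p = 0.0578). The call of FTH1 held in 14 of 14 alternatives, whereas those of FTL, STEAP4, SLC11A2 and SLC40A1 were lost in 5, 9, 1 and 4 of them. FTH1 has processed pseudogenes that can share its reads, and 63.2% of its exonic bases overlap BEST1 on the other strand. In MDA-MB-453 edgeR called 0 of the 11 tested genes, 4 had an unadjusted p under 0.05 and DESeq2 called 0. FTH1 there had a log2 fold change of 0.10 (SE 0.038). Without MDA-MB-453 TWEAK replicate 2, the library that stood apart in that line, 4 of them were called by edgeR, namely FTH1 (0.12, adjusted p = 0.0208), FTL (0.16, adjusted p = 0.0106), SLC40A1 (-0.14, adjusted p = 0.0157) and the iron regulatory protein ACO1 (-0.28, adjusted p = 0.00352). FTH1, FTL and ACO1 were also called with the replicate block, and ACO1 without a filter on low counts. Over all genes 1003 were called higher and 1098 lower without TWEAK replicate 2, against 192 and 31 in the main fit. With the block these counts were 490 and 404, and without a filter 302 and 178. Nothing is read from the count of iron genes.

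Of 10 tested metal and oxidative stress genes 1 rose and 1 fell in SKBR3. HMOX1, haem oxygenase, is known to be induced by cadmium and oxidants, as metallothioneins are. HMOX1 rose from 10.8 ± 0.372 to 17.7 ± 0.958 CPM (log2 fold change 0.71, SE 0.0829, edgeR adjusted p = 0.000276). MT2A was lower in the same libraries, and a link between these changes was not tested. DNAJB1, a heat shock co-chaperone, fell by 0.19 on the log2 scale (edgeR adjusted p = 0.0717) and lost the call in 7 of 14 alternatives. In MDA-MB-453 HMOX1 rose by 0.27 (edgeR adjusted p = 0.0801), a call lost in 9 of 14 alternatives.

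Glucocorticoid receptor targets moved in both directions in SKBR3. Of 10 tested genes 3 rose, namely SGK1 (1.09, edgeR adjusted p = 0.0187), ERRFI1 (0.73, adjusted p = 0.000143) and DUSP1 (0.38, adjusted p = 0.00605). A further 3 fell, namely TSC22D3, which encodes GILZ (-0.52, edgeR adjusted p = 0.000241), CEBPD (-0.43, adjusted p = 0.047) and GLUL (-0.18, adjusted p = 0.0779). TSC22D3 went from 86.9 ± 2.66 to 60.7 ± 1.03 CPM (SD, n = 3). SGK1 had few reads, 11 to 15 in untreated libraries and 23 to 29 with TWEAK, and DESeq2 did not call it. The calls of TSC22D3, ERRFI1 and DUSP1 held in all 14 alternatives and those of SGK1, CEBPD and GLUL were lost in 1, 5 and 8. The receptor gene NR3C1 had a log2 fold change of -0.18 and was not called (edgeR adjusted p = 0.308). In MDA-MB-453 edgeR called 0 of the 10, 1 had an unadjusted p under 0.05 and DESeq2 called 0. TSC22D3 there had a log2 fold change of -0.12, and it was called lower in 3 of 14 alternatives, namely with the replicate block, without TWEAK replicate 2 and with length and GC trends removed, the lowest adjusted p being 0.0276. The interactions of GLUL (0.20) and DNAJB1 (0.18) did not pass the threshold with all libraries and passed in 4 and 3 of 19 alternatives, among them without SKBR3 TWEAK replicate 2. These lists were put together with earlier results of the data known, and their counts stand beside the background of 6.6% higher and 3.82% lower in SKBR3.

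**Figure D4:**
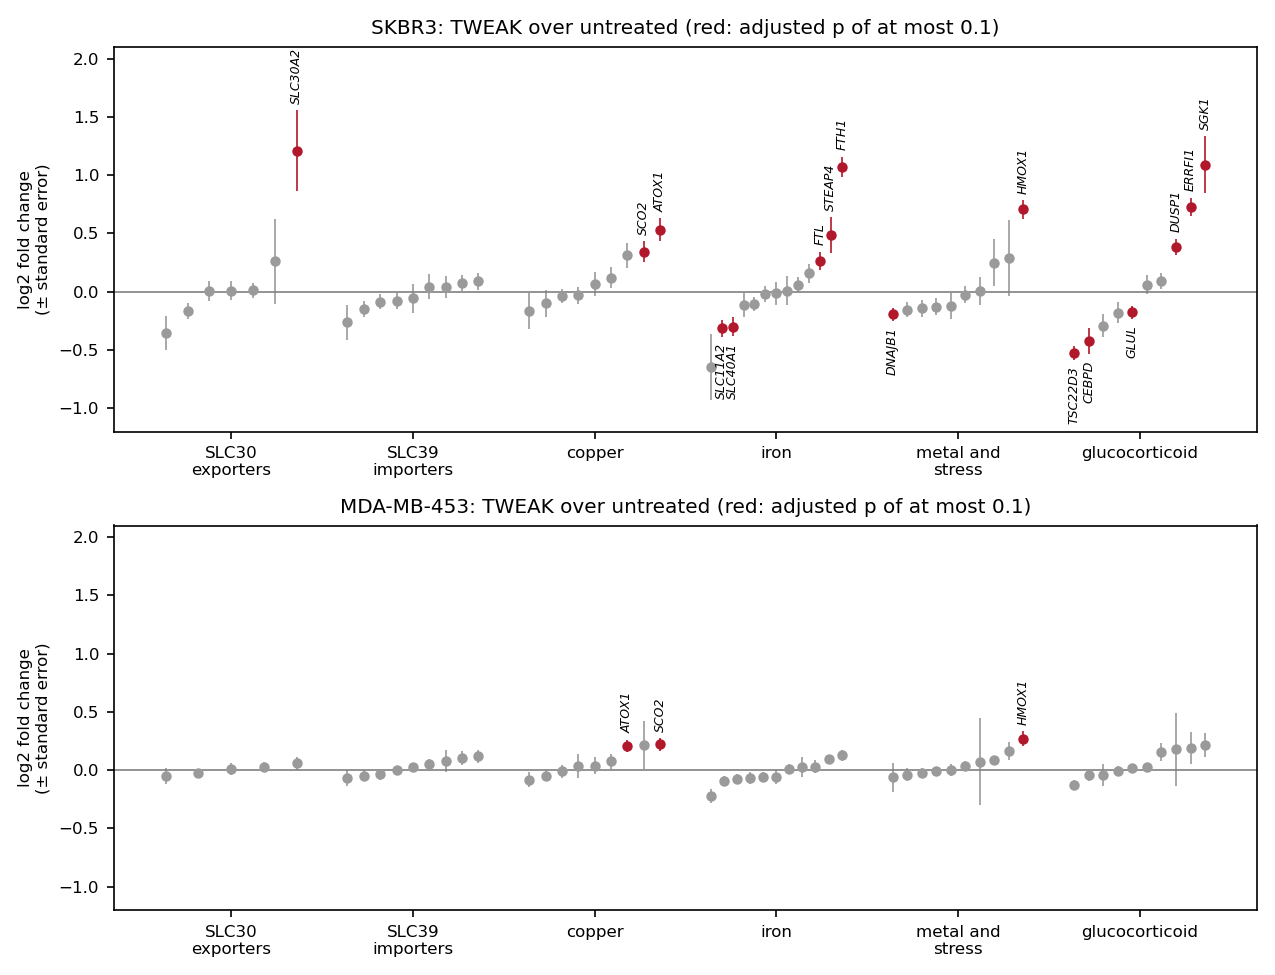
Log2 fold change (points) and standard error (bars) of TWEAK over untreated for the tested genes of 6 lists, in SKBR3 (top) and MDA-MB-453 (bottom), sorted by size within each list. Called genes (adjusted p of at most 0.1) are red and named, and FTH1 at 1.07 and TSC22D3 at -0.52 are the ends of the range of calls that held in every alternative in SKBR3.

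The genes whose level followed MT2A most closely over the 6 SKBR3 libraries were found by the Pearson correlation of log2(CPM + 1) among 10481 genes with a mean of at least 5 CPM. They were SECTM1 (0.9989), HILPDA (0.9985), EYA2 (0.9979), CAPN5 (0.9976) and RAP1GAP (0.9975). SECTM1 went from 32.0 to 15.1 CPM and HILPDA, a lipid droplet protein, from 73.6 to 51.6 CPM. The most opposed were PGM2 (-0.9988), DIO2 (-0.9981) and IRF2 (-0.9969), and DIO2, a thyroid hormone deiodinase, went from 72.0 to 149.0 CPM. Within the group MT1G reached 0.9796 and MT1X 0.9362, against -0.3032 for MTF1 and -0.5227 for SLC30A1. The 6 libraries share the TWEAK contrast, and 3 of the 5 remained among the top 5 by rank correlation, where 63 genes tied.

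In MDA-MB-453 the 5 closest of 10244 genes were SIX2 (0.9899), AACS (0.9893), HSBP1L1 (0.977), CAMK1D (0.974) and RRAGA (0.9731), and the 3 most opposed were ADGRB2 (-0.9764), C2CD2L (-0.9745) and CHDH (-0.9744). None of these 8 genes was called with TWEAK in that line by edgeR, and 0 of the 5 were among the top 5 by rank correlation, where 9 genes tied. Within the group SLC39A14 stood at -0.7983 and MTF1 at 0.1512.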

How the data were processed

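RNA-seq read counts of 12 libraries (2 lines, each with 3 untreated and 3 TWEAK replicates) were used. Per the labels and the study's methods, polyadenylated RNA was sequenced on a HiSeqX, and the authors trimmed the reads with Trimmomatic, mapped them to hg38 with STAR and deposited raw counts per gene from featureCounts, with no normalisation. Their DESeq2 analysis was not used. Tool versions, annotation, strand setting and treatment of multimapping reads are not given in the sources used here, and the labels and methods name different NEBNext kits. Of the 62696 identifiers, 61918 matched GENCODE 44 with version and 62625 without.

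Counts were tested with edgeR 4.0.16 (filterByExpr, TMM, quasi-likelihood) in R 4.3.3, within each line, between the untreated lines and as a line by TWEAK interaction, with Benjamini-Hochberg adjustment over all tested genes and a threshold of 0.1. CPM used TMM factors over 12 libraries, TPM the merged exon length. Detection floors of 3 reads cover counting error only, whereas SDs and SEs hold the spread between replicates. The members and the lists were chosen with earlier results of these data known. The text names the 10 members, called genes of the metal, stress and glucocorticoid lists, the 5 genes most like and 3 least like MT2A in each line, and NFKB2, BIRC3 and TNFRSF12A. Named outside this rule, after their values were seen, were some uncalled or untested genes and cell markers. Alternatives were DESeq2 1.42.0 (test, size factors), other count filters, all 12 libraries in one fit, a replicate block, a threshold of 0.05, each library left out and, added after seeing the data, removal of length and GC trends. All libraries were kept.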

Additional observations from a re-analysis of the deposited data

Results flagged for a closer look

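By the interaction test (edgeR, Benjamini-Hochberg), 6 genes of the other lists and the marker KRT19 passed the threshold for a differing TWEAK change. Over all genes 1.01% passed with a positive and 2.36% with a negative difference. The lists were put together with earlier results of the data known, so their calls are given as a description too. MT2A also passed the threshold, which supports nothing, since it was chosen with its SKBR3 change known. As a description, the log2 fold change of MT2A was nearer 0 in MDA-MB-453 than in SKBR3, with a signed log2 difference (MDA-MB-453 minus SKBR3) of 1.40, and its level was lower in 3 of 3 TWEAK libraries than in any untreated library in each line, with log2 fold changes of -1.62 (SKBR3) and -0.22 (MDA-MB-453). The other differences, signed the same way, were -0.98 for FTH1 (adjusted p = 1.3e-05), -0.78 for ERRFI1 (adjusted p = 0.000122), 0.40 for TSC22D3 (adjusted p = 0.00197), -0.44 for HMOX1 (adjusted p = 0.0189), 0.64 for CEBPD (adjusted p = 0.0242), -0.39 for ACO1 (adjusted p = 0.0675) and -0.35 for KRT19 (adjusted p = 0.0939), all by edgeR. That of ACO1, an iron regulatory protein, was lost in 13 of 19 alternatives, with adjusted p between 0.0117 and 0.18, that of KRT19 in 11 of 19, with adjusted p between 9.02e-05 and 0.226, and FTH1, ERRFI1, TSC22D3, HMOX1 and CEBPD were called in all 19. The part of the libraries that stood apart was checked by leaving out each library, and no other cause was tested.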

How the results depend on the processing

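Of the fits of single members under an alternative, 456 stayed on the same side of the threshold, 14 newly passed it and 2 (the interaction of MT1G) moved. As these genes were chosen with results known, this is no support for them. Uncalled values near 0 changed sign in some fits (MTF1, SLC39A10 and SLC39A14 in SKBR3, MT1F, MT1X, SLC39A10 and SLC39A14 in MDA-MB-453, and SLC39A10 in the interaction). The interaction of MT1G was 0.16 by DESeq2 and 1.24 without the MDA-MB-453 untreated replicate that held its 1 read. Main counts of all genes, higher and lower, were 1034 and 599 (SKBR3), 192 and 31 (MDA-MB-453), and 173 and 406 (interaction). With length and GC trends removed (added after seeing the data), they were 1560 and 1122 in SKBR3, 79 lower in MDA-MB-453 and 407 higher for the interaction. One fit over all 12 libraries gave 1068 lower in SKBR3 and 13 in MDA-MB-453, no filter 302 higher and 178 lower in MDA-MB-453, and a threshold of 0.05 gave 363 lower in SKBR3, 17 in MDA-MB-453 and 95 higher for the interaction. MT2A became the 1 member called lower in MDA-MB-453 by DESeq2, without a filter, with the replicate block and with the trends removed. MT1X made 2 members called in the interaction without a filter and with the trends removed. Without single libraries, counts ranged from 686 to 1589 higher and 240 to 1191 lower in SKBR3, 120 to 1003 and 10 to 1098 in MDA-MB-453, and 90 to 505 and 304 to 645 for the interaction; members ranged from 0 to 1 higher in SKBR3, 0 to 1 lower in MDA-MB-453, and 1 to 2 higher and 0 to 1 lower in the interaction. The highest counts of all genes came without TWEAK replicate 2 (of SKBR3 for the interaction). Lower calls in SKBR3 were 284, 240 and 327 without untreated replicates 1, 2 and 3, and the 686 higher calls came without untreated replicate 2. In MDA-MB-453 higher calls were 121 and 120 and lower calls 10 and 11 without untreated replicates 2 and 3, and lower calls were 11 without TWEAK replicate 3. Higher calls of the interaction were 100 without SKBR3 untreated replicate 2, 105, 97 and 95 without the MDA-MB-453 untreated replicates 1, 2 and 3 and 90 without its TWEAK replicate 3. The cause was not tested. By rank correlation 3 of the 5 genes most like MT2A were in the top 5 in SKBR3 and 0 in MDA-MB-453. With 6 libraries, 63 and 9 genes tied at that cut or above it, so the ranks cannot show whether these lists are stable.

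The labels tie no replicate number to a day or batch. The study's methods state that cell line experiments were repeated independently on separate days, without tying a replicate number to a day. Samples of the same number may therefore share a day, and the numbers were not shown to pair the samples. Same-numbered deviations correlated at 0.218, -0.181 and -0.289 in SKBR3 and at 0.166, 0.172 and 0.0248 in MDA-MB-453, where each library correlated best with its own number. The replicate block gave 387 lower in SKBR3, 490 higher and 404 lower in MDA-MB-453 and 101 higher for the interaction, and called MT2A lower in MDA-MB-453. Depth limits the TWEAK comparison of MT1M in both lines and of MT1G and MT1E in MDA-MB-453 and SKBR3, respectively, where a library held 0 or 1 reads.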
